A study of Mus musculus with 72 samples.

Results

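The comparison set the cerebellum of 15-day-old mice (P15) against the forebrain, taken as the mean of the cerebral cortex and the hippocampus, each region entering with its own group mean. It used 16 of the 18 P15 arrays in a series of 72, namely 5 arrays of cerebellum, 6 of cerebral cortex and 5 of hippocampus. The arrays came from Ts1Cje mice, which carry 3 copies of a segment of mouse chromosome 16, and from their disomic C57BL/6 littermates, the control group, and genotype was a term of the fit. Cerebellum was measured in 3 Ts1Cje and 2 disomic samples, cerebral cortex in 3 and 3, and hippocampus in 3 and 2. The animals were untreated, the labels call them female, and each array measured total RNA of 1 dissected region from 1 mouse. The series profiled the same regions and genotypes at P1 (P1.5 in the methods), P30 and P84, and the trisomy is the same germline translocation in every cell of a Ts1Cje animal.

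Disomic replicate 3 of cerebellum and disomic replicate 3 of hippocampus were left out, since each carried the profile of the other region. On a scale on which the other hippocampus arrays averaged 0 and the other cerebellum arrays 1, the array labelled hippocampus lay at 0.988 and the array labelled cerebellum at 0.0118. Values are log2 gcRMA levels of probe sets, so a difference of 1 is a doubling. The arrays hold no detection calls here, and a level below the median of the arrays, 3.25, was not shown to be above background. The label of sex did not match the data. In 16 of 16 P15 arrays Xist, at 2.03 to 2.58, lay below the Y-linked Eif2s3y, at 8.02 to 9.0.

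The cerebellum is built from a few cell types in very unequal numbers. Granule cells, the most numerous neurons of the brain, receive mossy fibre input and send parallel fibres to Purkinje cells, whose GABAergic axons are the only output of the cerebellar cortex. In the mouse, granule cell precursors still divide in the external germinal layer in the early postnatal weeks, so P15 lies near the end of that phase. Cortex and hippocampus hold glutamatergic pyramidal neurons and several classes of GABAergic interneuron. In bulk tissue fewer cells of a type and less RNA per cell cannot be told apart.

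A probe set was called where its moderated t in limma was at least 4 or at most -4 and its Benjamini-Hochberg adjusted p over all 45101 probe sets was at most 0.05. Genes were counted through 1 probe set each, over 18194 genes. Of these, 2497 (13.7%) were higher in cerebellum and 3011 (16.5%) were lower, and the median difference over all genes was -0.03. A difference of at least 4 log2 units was reached by 60 genes that were higher and by 114 that were lower. Against the cerebral cortex alone 2440 genes (13.4%) were higher and 2799 (15.4%) lower, and against the hippocampus alone 2034 (11.2%) were higher and 2567 (14.1%) lower. These contrasts share the cerebellum arrays. Called against the mean and against each region alike were 1747 genes (9.6%) that were higher and 2008 (11.0%) that were lower. Over all genes, the cerebellum arrays lay above every forebrain array in 1766 and below every one in 2162. Both conditions held for 1554 higher and 1853 lower genes, from which the 15 largest differences in each direction were taken, so that their arrays do not overlap follows from the choice.

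The 3 largest differences belonged to Pcp2, Gabra6 and Cbln3, and the sequences upstream of their start sites are shown because these genes define the contrast. They are 250 bases from RefSeq on GRCm38.p6, read 5′ to 3′ on the minus strand, at chr8:3625548-3625797, chr11:42321073-42321322 and chr14:55884257-55884506. Capitals mark matches to the E-box pattern CANNTG, which reads the same on both strands and to which helix-loop-helix factors such as Neurod1 bind.
Pcp2: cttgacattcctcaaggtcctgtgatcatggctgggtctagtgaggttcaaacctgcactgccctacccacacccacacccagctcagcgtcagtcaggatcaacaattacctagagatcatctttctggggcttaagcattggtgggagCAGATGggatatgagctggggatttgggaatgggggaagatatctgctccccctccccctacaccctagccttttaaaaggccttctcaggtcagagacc
Gabra6: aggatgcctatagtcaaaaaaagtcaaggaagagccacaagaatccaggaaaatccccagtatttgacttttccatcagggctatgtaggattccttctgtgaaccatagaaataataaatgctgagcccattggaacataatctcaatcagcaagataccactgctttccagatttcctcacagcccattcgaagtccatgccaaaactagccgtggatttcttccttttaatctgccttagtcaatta
Cbln3: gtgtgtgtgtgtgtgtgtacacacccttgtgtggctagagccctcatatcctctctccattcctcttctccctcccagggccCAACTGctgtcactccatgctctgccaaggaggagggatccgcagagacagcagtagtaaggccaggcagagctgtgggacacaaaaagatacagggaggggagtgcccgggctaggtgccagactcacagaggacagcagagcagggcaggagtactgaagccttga
CANNTG was found once upstream of Pcp2 and of Cbln3 and not in the Gabra6 window, and 66.0% of 27025 promoters of that length held it. The Pcp2 match is CAGATG, a form (with its reverse complement CATCTG) present in 14.5% of promoters. AGGTCA or its complement TGACCT, the half-site of nuclear receptors such as Rora, was found once, upstream of Pcp2, and in 13.8% of all promoters.

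Purkinje cell genes were higher in cerebellum as a group. Of 22 measured members 19 were called higher, 1 lower and 2 not, with a median difference of 3.09. Pcp2, a modulator of G protein signalling made by Purkinje cells, read 14.03 and 13.91 in the disomic and 14.1, 13.88 and 13.83 in the Ts1Cje cerebellum arrays, against 2.86, 3.38 and 3.9 as the lowest, median and highest of the 11 forebrain arrays. Every cerebellum array lay above every forebrain array, and the difference was 10.59 ± 0.139 (SE; adjusted p = 6.8e-18, limma). Its 3 probe sets were all called higher, by 2.24 to 10.59.
Slc1a6, the Purkinje cell glutamate transporter, read 10.78, 10.56, 10.93, 10.83 and 10.83 in cerebellum and 3.25 to 4.42 in the forebrain, a difference of 6.83. Pvalb, a calcium buffer that forebrain interneurons also use, was higher by 5.82 ± 0.242 and Calb1, another calcium buffer, by 2.54 ± 0.0653, from forebrain levels of 9.98 to 10.64. The nuclear receptor Rora, which Purkinje cells need to survive, was higher by 3.6 and Car8, an inhibitor of the inositol trisphosphate receptor, by 5.6. The exception was the BK channel gene Kcnma1, which was lower by 0.93. Shh, the mitogen that Purkinje cells release, was not called, at 4.46 in cerebellum and 4.62 and 4.06 in cortex and hippocampus.

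Granule cell genes gave the most uniform list. Of 20 measured members 19 were called higher and none lower, with a median of 4.48. Gabra6, the GABA-A subunit of mature granule cells, read 12.41, 12.18, 12.32, 12.08 and 12.2 in cerebellum and 1.94 to 2.78 in the forebrain. In the fit of P15 arrays alone its difference had an SE of 0.133 (adjusted p = 7.18e-18, limma). The separate fit of all ages described further on, to which that SE does not belong, gave a difference of 10.01. Cbln3 read 12.05, 12.17, 11.96, 11.84 and 11.78 against 2.16 to 2.65, a difference of 9.62 ± 0.0833 (adjusted p = 8.34e-20). For both genes all 11 forebrain arrays lay below 3.25, so the fold rests on a forebrain level not shown to be above background.
The transcription factors of this lineage were also high. En2 was higher by 7.27, Pax6 by 5.99, Zic1 by 5.39 and Neurod1 by 4.44, the last with a hippocampal level of 8.96 ± 0.297 between those of cortex (6.96 ± 0.26) and cerebellum (12.4 ± 0.102; SD). Fat2, a protocadherin of parallel fibres, was higher by 7.04. The vesicular glutamate transporter Slc17a7, which granule cells share with forebrain pyramidal neurons, was the member not called, at 9.24 to 10.06 in cerebellum and 9.31 to 11.04 in the forebrain.

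**Figure D1:**
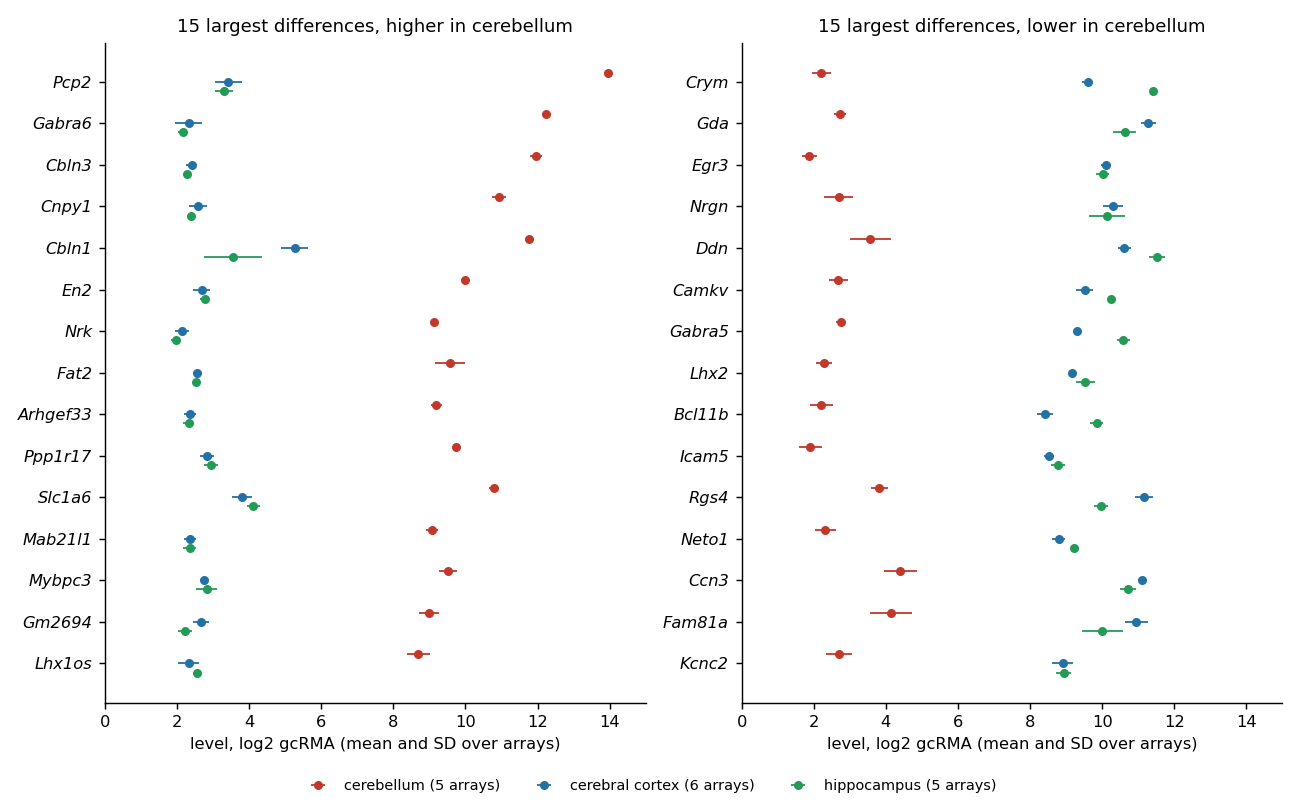
Mean level and SD over arrays (log2 gcRMA) in cerebellum, cerebral cortex and hippocampus at P15 for the 15 genes with the largest differences in each direction. The genes were chosen among those whose arrays do not overlap between cerebellum and forebrain. For 12 of the genes on the left the forebrain mean, and for 11 on the right the cerebellum mean, was below 3.25.

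Among the other cells of the cerebellum, 6 of 10 Bergmann glia genes were called higher and 2 lower. Gdf10, a growth factor of these radial glia, read 11.64, 11.44, 11.73, 11.47 and 11.42 in cerebellum, 4.77 to 4.97 in cortex and 6.0 to 6.61 in hippocampus. The 3 regions did not overlap, and the difference was 5.95. Npy2r, a receptor for neuropeptide Y on this list, was lower by 3.31, with 7.31 in hippocampus and 3.05 in cortex. Of 13 genes of cerebellar interneurons and unipolar brush cells 5 were higher and 4 lower. Tfap2b, a factor of interneuron precursors, was higher by 3.73 and Eomes, of unipolar brush cells, by 2.85, whereas Grm2 was lower by 1.43 and Nxph1 by 2.07.

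Transcription factors that pattern the brain differed by region of origin. Of 23 hindbrain factors 15 were higher, 1 lower and 7 not called, and the largest after En2 were Zic5 (5.98), Lhx1 (5.53), Zic1 and Meis1 (5.08). The Hox and Lmx1 members, among those not called, had region means between 1.44 and 2.55. Of 33 forebrain factors 25 were lower, 5 higher and 3 not called, with a median of -2.4. Lhx2, a selector gene of the cortex and hippocampus, read 2.52, 2.15, 2.18, 2.54 and 2.07 in cerebellum and 9.09 to 9.82 in the forebrain. Bcl11b (-6.93), Neurod6 (-5.99), Lmo3 (-5.2), Fezf2 (-4.68) and Tbr1 (-4.68) specify or mark cortical and hippocampal projection neurons and were lower in all 5 cerebellum arrays than in any forebrain array. The 5 that were higher were Cux1, Neurod2 (1.16), Id2 (0.79), Zbtb18 (0.73) and Zbtb20 (0.43), of which Neurod2 is also made by granule cells. Cux1 was higher by 2.04 and its paralogue Cux2 lower by 1.56, the latter against cortex (-2.96) more than against hippocampus (-0.15, not called).

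**Figure D2:**
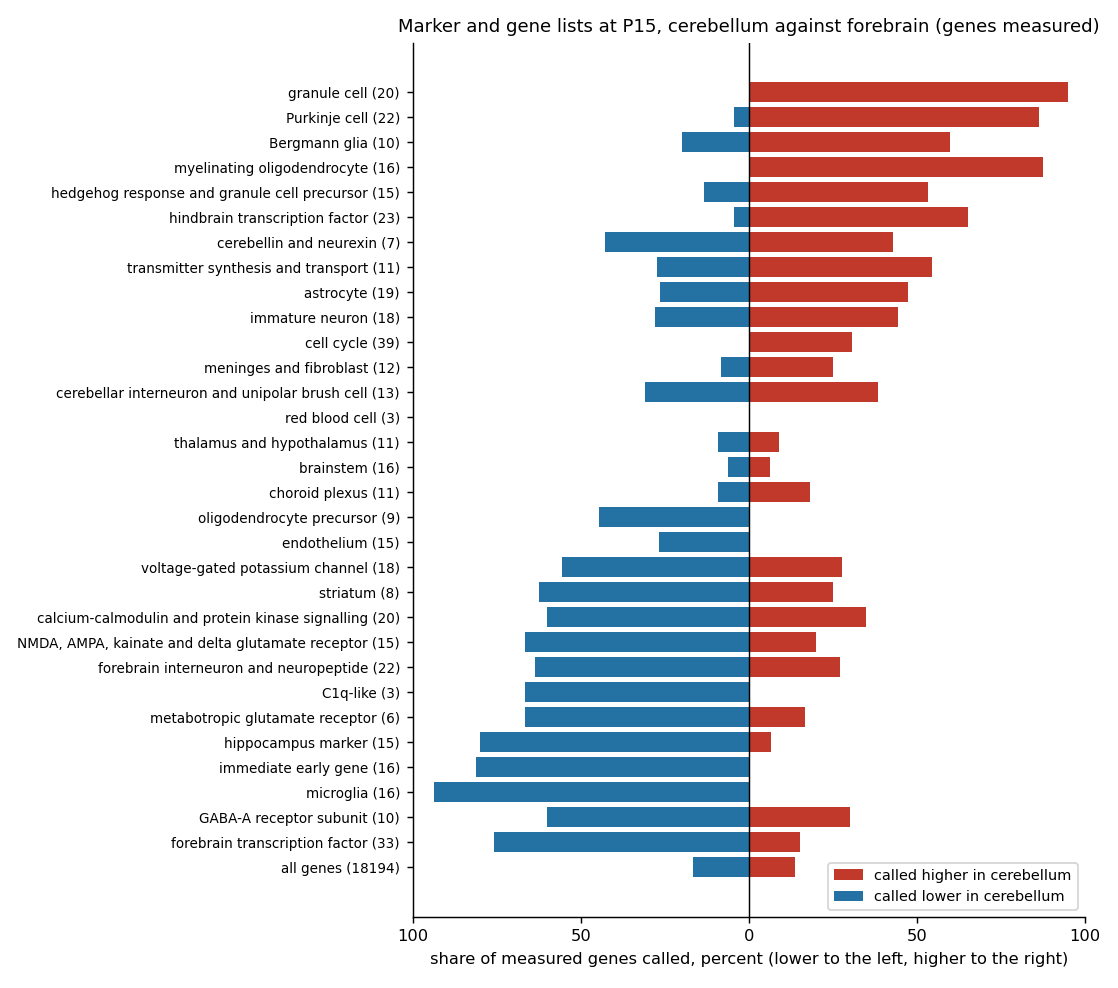
Share of the measured genes of each list called lower (left) and higher (right) in cerebellum than in the forebrain at P15, with the number measured in brackets leaving out the triplicated segment, and all genes in the bottom row, where 13.7% were higher and 16.5% lower. Granule and Purkinje cell lists lie almost wholly to the right, and the microglia and immediate early gene lists wholly to the left.

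Receptors for GABA, the main inhibitory transmitter, differed between the regions subunit by subunit. Of 10 measured subunits of the GABA-A receptor 3 were higher in cerebellum, 6 lower and 1 not called. Gabrd, which joins Gabra6 in extrasynaptic receptors of granule cells, read 9.74, 9.27, 9.57, 9.22 and 9.26 in cerebellum, 6.89 to 8.01 in cortex and 4.57 to 5.56 in hippocampus, although its other probe set differed by 0.22 and was not called. Gabra5, which forms tonic receptors in hippocampal pyramidal cells, read 2.85, 2.96, 2.72, 2.67 and 2.6 in cerebellum and 9.15 to 10.87 in the forebrain, a difference of -7.17 ± 0.0772 (adjusted p = 9.68e-19). Gabrb1 (-3.03), Gabra4 (-2.89), Gabra3 (-2.55), Gabrg3 (-2.5) and Gabra2 (-2.07) were lower too. Gabrb2 differed by only 0.45, with 10.48 to 10.79 in cerebellum inside the range of 10.38 to 10.8 in cortex, and 1 of its 5 probe sets was called.

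Ionotropic glutamate receptor subunits were lower in 10 of 15 measured members and higher in 3. The NMDA receptor subunits Grin2c and Grin2b, which give the channel different kinetics, went opposite ways. Grin2c, the subunit of mature granule cells, read 9.44, 9.46, 9.05, 9.26 and 9.46 in cerebellum and 4.34 to 5.5 in the forebrain, a difference of 4.52 ± 0.137. Grin2b, the juvenile forebrain subunit, read 4.57, 4.82, 4.67, 4.54 and 3.29 against 8.52 to 9.57, a difference of -4.58 ± 0.226. Neither gene's arrays overlapped between cerebellum and forebrain, but only 2 of the 4 Grin2b probe sets were called and they spanned -4.58 to -0.08. The AMPA receptor subunit Gria4, carried by Bergmann glia and granule cells, was higher by 3.0, and the kainate subunit Grik2 by 1.66. Gria3 (-1.49) and Grik5 (-1.82) were lower. For Gria2, which makes AMPA channels impermeable to calcium, the probe set used gave -0.72, but 1 of its 3 probe sets was called higher, at 0.64.
Of 6 metabotropic receptors 4 were lower and Grm4, the presynaptic receptor of parallel fibres, was higher by 5.02. Grm7 was lower by 3.71 and Grm5, a postsynaptic receptor of forebrain pyramidal neurons, by 2.9.

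**Figure D3:**
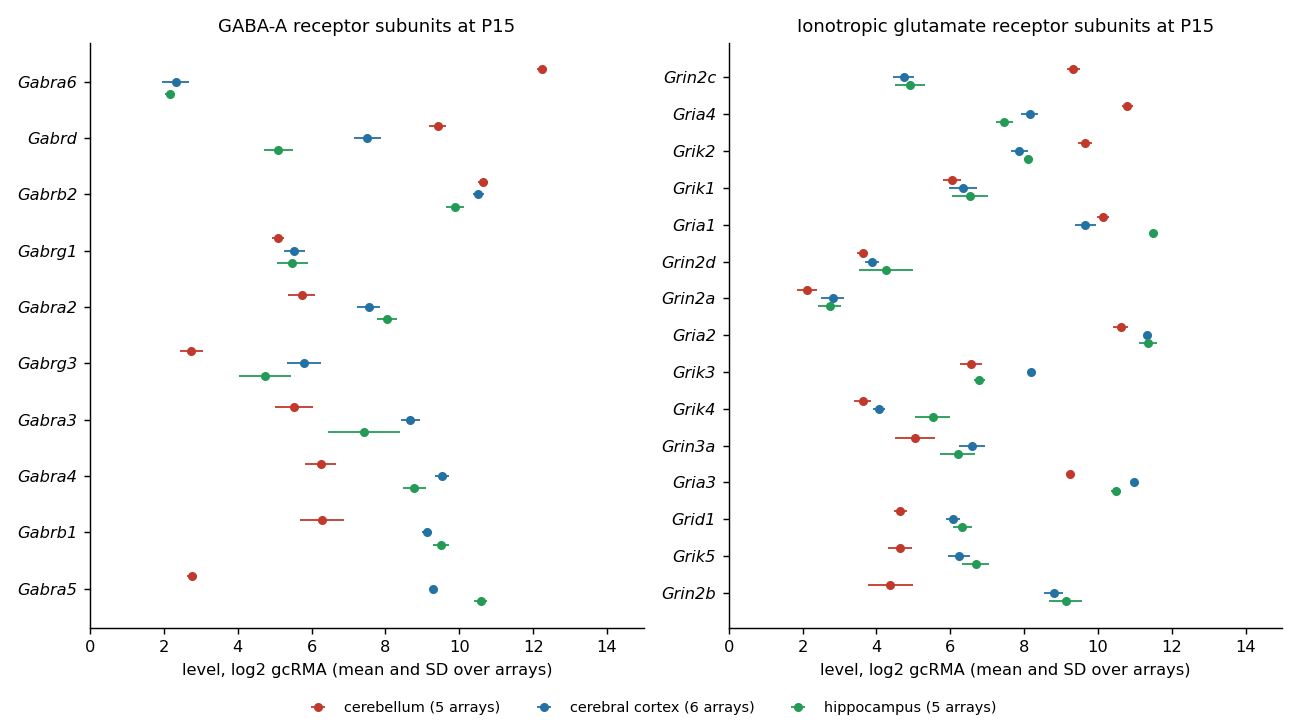
Mean level and SD over arrays (log2 gcRMA) of the measured GABA-A receptor subunits and ionotropic glutamate receptor subunits in the 3 regions at P15, in order of the difference between cerebellum and forebrain. Gabra6, Gabrd, Grin2c, Gria4 and Grik2 lie to the right in cerebellum, and Gabra5 and Grin2b to the left.

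The cerebellins, secreted synapse organizers that bind presynaptic neurexins, split by paralogue. Cbln1 read 11.97, 11.78, 11.73, 11.72 and 11.67 in cerebellum, 4.76 to 5.61 in cortex and 2.75 to 4.77 in hippocampus, and with Cbln3 it was higher, by 7.37. Cbln2 (-2.57) and Cbln4 (-2.64) were lower, at 2.5 and 3.1 in cerebellum, below 3.25. The related C1q-like genes gave no higher call. C1ql2, of the dentate gyrus, stood at 5.51 ± 0.631 in hippocampus and at 2.26 and 2.5 in cerebellum and cortex, and C1ql1, made by climbing fibre neurons of the inferior olive outside the cerebellum, was not called (2.95, 3.1 and 3.49).

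Calcium and calmodulin signalling was lower in 12 of 20 members and higher in 7. Camk2a, the alpha subunit of the kinase of excitatory postsynaptic densities, read 4.28, 4.64, 3.71, 4.76 and 4.62 in cerebellum and 9.29 to 10.88 in the forebrain (-5.7 ± 0.146), and its calmodulin-binding companions Nrgn (-7.52) and Camkv (-7.19) were below 3.25 in every cerebellum array. Camk4, a nuclear kinase of granule cells, was higher by 1.04 and Camk2d by 1.78. Of 18 voltage-gated potassium channel genes 10 were lower and 5 higher. The fast Kv3 channel genes Kcnc1 and Kcnc2 went opposite ways, by 3.46 ± 0.261 and -6.2 ± 0.144. Kcnc2 read 2.55, 3.18, 2.29, 2.55 and 2.94 in cerebellum against 8.5 to 9.16, and the M-current subunits Kcnq5 (-4.53) and Kcnq3 (-3.52) were lower.

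The largest negative differences were those of Crym, which binds thyroid hormone, Gda, a guanine deaminase, and Egr3, an immediate early transcription factor. Crym read 2.27, 1.83, 2.55, 2.16 and 2.24 in cerebellum, 9.35 to 9.76 in cortex and 11.31 to 11.5 in hippocampus, a difference of -8.3 ± 0.0982 (adjusted p = 2.55e-18). Gda differed by -8.24 and Egr3 by -8.17, and for all 3 genes no cerebellum array reached 3.25. Egr3 had a second probe set that differed by -0.13 and was not called. The gene upstream sequence of Gda at chr19:21472662-21472911 (RefSeq, GRCm38.p6, minus strand, CANNTG in capitals) shows 1 E-box, close to its 5′ end.
Gda: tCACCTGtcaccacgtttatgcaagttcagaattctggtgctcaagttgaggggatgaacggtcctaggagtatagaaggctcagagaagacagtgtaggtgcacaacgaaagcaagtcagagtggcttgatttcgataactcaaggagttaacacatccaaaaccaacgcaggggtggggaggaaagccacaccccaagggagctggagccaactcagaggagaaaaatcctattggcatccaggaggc

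Others among the 15 largest differences in each direction were not tied to 1 cell list. Cnpy1, a relative of an endoplasmic reticulum protein that acts at the midbrain-hindbrain boundary, was higher by 8.46, Nrk, a kinase, by 7.09 and Mab21l1, a developmental gene, by 6.72, each with every probe set called higher. Ddn, which codes for the postsynaptic protein dendrin, read 2.71 to 4.09 in cerebellum and 10.44 to 11.74 in the forebrain (-7.48 ± 0.172). Icam5, a telencephalic adhesion molecule of dendrites, was lower by 6.75 and Neto1, an auxiliary subunit of glutamate receptors, by 6.69.

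Genes for making and moving transmitters were spread in both directions. Of 11 members 6 were higher, 3 lower and 2 not called, with a median of 0.46. The vesicular GABA transporter Slc32a1 (0.8), the GABA-synthesizing enzyme Gad1 (0.46) and the glycine transporter Slc6a5 (1.76) were higher, whereas Gad2, the other GABA-synthesizing enzyme, was lower by 1.1 and read 6.72 to 7.11 in cerebellum against 7.61 to 8.65. Among glutamate transporters Slc1a3, of Bergmann glia and astrocytes, was higher by 1.03 and the neuronal Slc1a1 lower by 2.13.

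Immediate early genes, which neurons switch on with activity, were lower in 13 of 16 members and higher in none, with a median of -2.06. Egr1 was lower by 3.47, Bdnf, a secreted neurotrophin, by 3.89 and Arc, a regulator of synaptic AMPA receptors, by 2.94. Fos was not called, at 5.28 in cerebellum, 7.07 in cortex and 5.05 in hippocampus. Nr4a3 was lower by 4.72 with 1 of 3 probe sets called. Of 22 genes of forebrain interneurons and neuropeptides 14 were lower and 6 higher. Sst, the peptide of one interneuron class, read 4.04, 3.59, 3.77, 4.04 and 4.18 in cerebellum and 9.56 to 10.36 in the forebrain (-6.08 ± 0.116). Vip (-5.64), Npy (-5.47) and Crh (-5.41) were lower likewise. The 6 that were higher (Pvalb, Calb2, Nos1, Penk, Reln and Cnr1) include Pvalb, Calb2, Nos1 and Reln, which cerebellar neurons also express.

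Hippocampal and cortical values diverged most for hippocampal markers, of which 12 of 15 were lower and 1 higher. Fibcd1, of pyramidal cells of field CA1, read 2.98, 2.63, 3.25, 3.0 and 2.82 in cerebellum, 3.49 to 4.31 in cortex and 8.46 to 9.07 in hippocampus. Dsp, of the dentate gyrus, read 2.03 to 2.6 in cerebellum and 2.1 to 2.65 in cortex, which overlap, and 6.93 to 8.07 in hippocampus. For both genes the difference from the forebrain mean (-3.3 and -2.77) was mostly that from the hippocampus (-5.76 and -5.43), against -0.85 and -0.1 from the cortex.
In 17 genes (0.0934%) the call against cortex and the call against hippocampus were opposite, and the 2 contrasts share the cerebellum arrays. Prox1, a factor of dentate granule cells, read 5.47, 5.96, 5.37, 5.44 and 6.28 in cerebellum, 2.55 to 3.34 in cortex and 6.85 to 8.32 in hippocampus, so the cerebellum lay between the regions, 2.81 above cortex and 1.86 below hippocampus. Zbtb20 was ordered the same way (7.6, 9.51 and 10.55 in cortex, cerebellum and hippocampus), as were Cabp7 and Fgfr1. Ipcef1 (9.6, 8.57 and 5.94) and Sema3a (6.43, 5.63 and 3.41), an axon guidance molecule, were ordered the other way. Over the 6 highest and 6 lowest of the opposite genes the difference from the forebrain mean ran from -0.29 for Opn3 to 0.79 for Ipcef1.

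Non-neuronal cell markers also differed. Of 16 microglia genes 15 were lower in cerebellum and none higher, with a median of -2.1. P2ry12, a receptor of resting microglia, read 3.83, 3.34, 3.79, 3.34 and 3.13 in cerebellum and 5.31 to 7.43 in the forebrain (-3.33 ± 0.266), and Csf1r (-2.72), which keeps microglia alive, and C1qa (-2.49) did not overlap either. Trem2, the member not called, lay at 3.04. Myelin genes moved the other way. Of 16 members 14 were higher and none lower, with a median of 1.21. Mog, a myelin surface protein, read 10.37, 10.05, 10.29, 10.25 and 10.38 against 7.84 to 9.3 (1.67 ± 0.205), and Mal was higher by 1.79. Mbp, near the top of the scale, was higher by 0.43 in the probe set used, with 6 of its 8 probe sets called higher and 1 lower. Precursors of that lineage were not higher. Of 9 oligodendrocyte precursor genes 4 were lower, among them Pdgfra (-2.29) and Gpr17 (-1.52). Astrocyte genes split, 9 of 19 higher (Agt by 3.01, Aqp4 by 1.63) and 5 lower (Slc1a2, the main forebrain astrocyte glutamate transporter, by 1.67), and the 2 Aldoc probe sets were called in opposite directions. The part of these cell types in the neuronal differences was not tested.

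Marker lists of neighbouring structures are given beside the share over all genes, 13.7% higher and 16.5% lower. The presence of such tissue was not tested. Of 16 brainstem genes 1 was higher and 1 lower, of 11 thalamus and hypothalamus genes 1 and 1, of 11 choroid plexus genes 2 and 1, of 12 meninges and fibroblast genes 3 and 1 (Ccn3, a matricellular protein at 11.11 and 10.72 in cortex and hippocampus and 4.4 in cerebellum), of 15 endothelial genes 0 and 4, of 3 red blood cell genes none, and of 8 striatum genes 2 and 5. The mean brainstem level was 2.52 to 2.74 over the cerebellum arrays and 2.67 to 2.77 over the cortex arrays, and Slc6a4, Tph2, Th, Chat and Dbh, which mark its monoamine and cholinergic neurons, were not above 4.46 in any region's mean. The striatum list averaged 4.65 in cerebellum, 5.86 in cortex and 5.1 in hippocampus. Ttr, the choroid plexus transthyretin, varied most, from 4.65 to 8.45 in cerebellum and from 8.52 to 13.73 in hippocampus, and was not called. Its part in the hippocampal values was not tested. Otx2, on the choroid plexus list, was higher in cerebellum by 3.19, and it is also a granule cell precursor factor.

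Some genes of dividing and immature cells were higher in cerebellum. Of 39 cell cycle genes 12 were higher in cerebellum and none lower, with a median of 0.24. Mki67, a proliferation marker, read 3.31, 3.78, 3.87, 4.98 and 4.7 in cerebellum and 2.82 to 3.35 in the forebrain, so 1 cerebellum array overlapped the forebrain. Of 15 genes of hedgehog response and granule cell precursors 8 were higher and 2 lower. Ptch1, the Shh receptor and target, was higher by 1.78, Gli1 by 1.07 and Nhlh2 by 5.28, whereas Atoh1, which defines the precursors, was not called at 2.31. Of 18 immature neuron genes 8 were higher and 5 lower, led by Neurod1, Cntn2 (3.6) and Unc5c (2.25).

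The difference between cerebellum and forebrain changed with age most between P1 and P15. In a fit of 70 arrays, P15 minus P1 was higher for 1599 genes (8.79%) and lower for 2070 (11.4%). P15 minus P30 was higher for 326 (1.79%) and lower for 244 (1.34%), and P15 minus P84 was higher for 434 (2.39%) and lower for 393 (2.16%). These 3 contrasts share the P15 arrays, and 3 dim arrays lie among those of P1 and P84 (counts without them are dealt with below). Xist lay below Eif2s3y in 15 of 18 arrays at P1 and in all 18 at P30 and at P84, and the part of the 3 other P1 arrays in the P1 contrast was not tested.
Gabra6 had no difference at P1 (-0.13), with 2.31 ± 0.0916 in cerebellum, and differed by 10.01 at P15 and 10.3 at P30. P15 minus P1 was 10.13 ± 0.503 (adjusted p = 1.02e-22). Its hippocampal level was more spread at the other ages (SD 1.47 at P1, 1.3 at P30 and 1.31 at P84) than at P15 (0.141). Cbln3 (0.48 at P1, 9.65 at P15) and Ppp1r17, a phosphatase inhibitor of Purkinje cells (0.15 and 6.85), changed likewise, whereas En2 was already 6.54 higher at P1. Rgs4, a brake on G protein signalling, was 1.2 higher in cerebellum at P1, at 8.05 ± 0.62, and 6.71 lower at P15, a change of -7.92 ± 0.284. Sst changed by -5.3, Vip by -5.3 and Lamp5 by -6.18. Microglia genes were within 0.38 of equal at P1, and 15 of 16 were called lower in P15 minus P1. Of 39 cell cycle genes 33 were lower in P15 minus P1, for example Birc5, whose difference was 3.66 at P1 and -0.02 at P15.

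Many genes of immature neurons stood higher in cerebellum relative to the forebrain at P15 than later. Of 18 such genes, 11 were higher in P15 minus P30, 1 was lower and 6 were not called, with a median of 1.06. In P15 minus P84, 10 were higher, 2 lower and 6 not called, with a median of 1.39. Insm1, a zinc-finger factor of newborn neurons, read 8.79, 9.53, 9.58, 9.67 and 9.3 in the P15 cerebellum and 3.97 ± 0.426 at P30 (SD, n = 6), while the forebrain means were close at both ages (5.5 and 6.64 in cortex and hippocampus at P15, 5.78 and 6.39 at P30). Its difference from the forebrain went from 3.22 at P15 to -2.12 at P30, a change of 5.34 ± 0.264 (adjusted p = 4.72e-21). Dcx, a microtubule protein of migrating neurons, went from 1.06 to -3.67, with 10.27 ± 0.269 in the P15 cerebellum and 4.22 ± 0.48 at P30. These were among 15 genes higher at P15 and lower at P30 with the change itself called, beside 4 of the reverse sign.
Of 16 myelin genes 7 were higher in P15 minus P30 and none lower. Mal went from 1.77 in the fit of all ages to -0.32 and Mog differed by 0.16 at P30. Mybpc3, a myosin-binding protein of muscle, was 6.76 higher at P15, 5.24 at P30 and 2.38 at P84. In the other direction, Ctxn3, a small membrane protein, rose in the cerebellum from 4.69 at P15 to 7.41 at P30 and 8.28 at P84, and its difference from 0.95 to 3.64 and 4.63. Etnppl, an enzyme of phosphoethanolamine breakdown in astrocytes, changed by -2.39 (P15 minus P30).

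**Figure D4:**
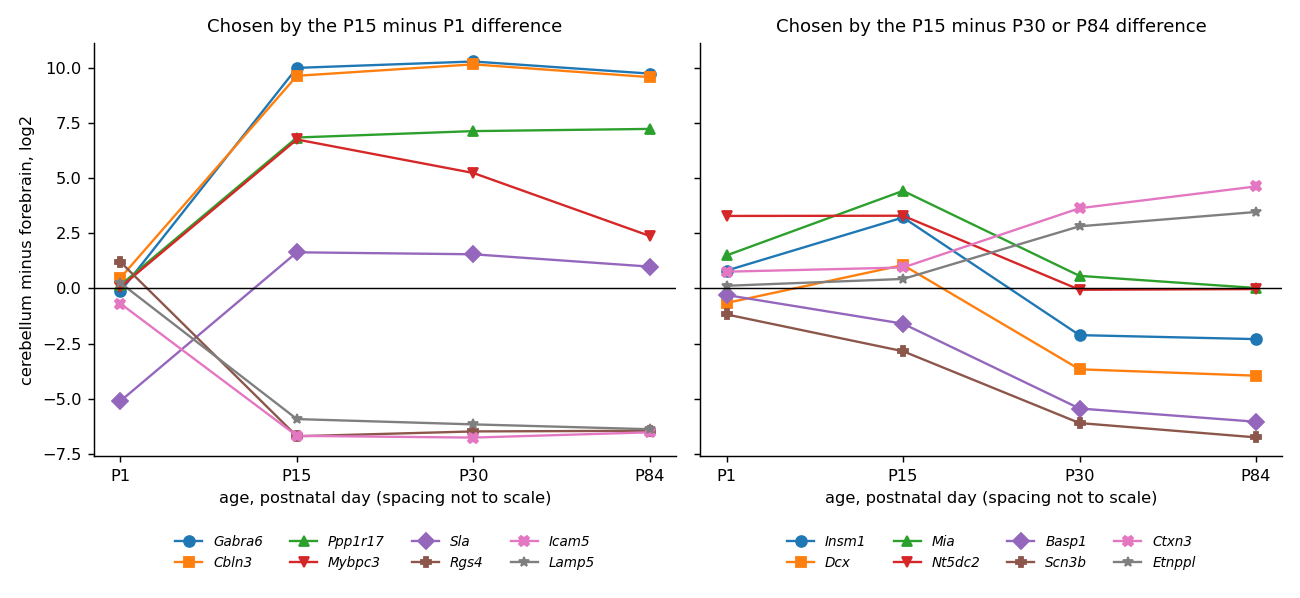
Difference in level between cerebellum and forebrain (log2) at P1, P15, P30 and P84 for 8 genes chosen for their change between P1 and P15 (left) and 8 chosen for their change after P15 (right), so the change itself is a description. Gabra6 goes from -0.13 to 10.01 by P15, and Insm1 from 3.22 at P15 to -2.12 at P30.

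The contrast was compared between Ts1Cje and disomic mice. No probe set was called for genotype dependence (0.0% of 45101). An unadjusted p under 0.05 was found for 1032 (2.29%), where 5.0% is expected without any effect, and the reason for the shortfall was not tested. The number was 1392 with a replicate block and 1079 with a trended and robust prior. Among genes counted through 1 probe set each, the lowest p belonged to Fam169a, whose difference was -2.07 in Ts1Cje and -2.73 in disomic mice (0.66 ± 0.14, SE, adjusted p = 1.0, limma). Over the 30 genes with the largest differences the genotype effect ran from -0.73 to 0.41. The median standard error of the genotype term was 0.205 on the log2 scale, and a p that misses the threshold does not show that the genotypes were alike. Of 79 measured genes of the triplicated segment 14 were higher and 8 lower in cerebellum, at a median of 0.01. Over all genes 13.7% were higher and 16.5% lower, at a median of -0.03. The genotype terms of the 79 genes ran from -0.69 to 0.82 with a median of 0.06. Of these 79 genes 6 had an unadjusted p under 0.05, beside 2.29% of all probe sets, and none was called. Pcp4, a calmodulin regulator of the segment that Purkinje cells express, was higher in cerebellum by 1.29, and Dscam, a cell adhesion molecule, was lower by 1.46.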

How the data were processed

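Total RNA of cerebral cortex, hippocampus and cerebellum was hybridized to Affymetrix mouse arrays, 1 per mouse and region. The deposited values are log2 levels per probe set, which the authors computed with gcRMA (background correction by probe sequence and normalization between arrays), with no version stated in the labels or methods read here. Scanner files and detection calls were not used here, and a number of arrays, not a read depth, limits precision. Of 45101 probe sets, 34958 had 1 gene symbol, 932 several and 9211 none, and 34754 matched the gene table of GRCm38.p6; a gene was counted through its probe set with the highest mean over the 72 arrays. No column lacked a sample.

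Group means per region with a genotype term were fitted in limma 3.58.1 (R 4.3.3; lmFit and eBayes, 12 residual degrees of freedom). Genotype dependence used 6 region by genotype means, and age dependence a fit of 24 group means over 70 arrays. Methods tie 3 regions to each mouse, but labels do not tie replicate numbers to mice, so the main fit used no block. At P15, 12 of 15 same-numbered pairs and 6 of 28 other-numbered pairs had deviations correlated over 0.1. Deviations were taken from group means of 2 or 3 arrays, so a positive correlation in some pairs forces negative ones in others. The 2 counts are therefore not independent. Any pairing by mouse was left out of the main fit, and fits that include it are given below. P-values of the main fit rest on the spread between samples, with samples of the same mouse treated as independent. Members, lists and tests were chosen with earlier results of these data known. Named genes were the 15 largest differences in each direction called against both regions without overlap of arrays, the 6 highest and 6 lowest of genes called oppositely, the 8 largest and 8 smallest age changes, and list members by role; not all are named. Lists count members with a probe set of 1 symbol. The fit of cerebellum against forebrain was tested on simulated data in which arrays varied independently, and the genotype and age fits were not.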

Additional observations from a re-analysis of the deposited data

Results flagged for a closer look

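Among the list means taken per region, 4 arrays lay apart from the others of their region by Dixon's test, over 96 region means, and chance alone gives about 1 in 20. The mean level of the hippocampus markers was 4.2 in disomic cerebral cortex replicate 2 against 4.03 to 4.08 in the other cortex arrays. The metabotropic glutamate receptors averaged 5.87 in disomic cerebellum replicate 2 against 5.69 to 5.73, the C1q-like genes 5.31 in Ts1Cje cerebral cortex replicate 3 against 5.06 to 5.14, and the astrocyte genes 9.34 in disomic cerebellum replicate 1 against 9.11 to 9.17.

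The arrays left out carried the other region's genes. Gabra6 read 12.04 in the array labelled hippocampus, disomic replicate 3, against 1.97 to 2.35 in the other hippocampus arrays. Neurod6 read 10.94 in the array labelled cerebellum, disomic replicate 3, against 3.87 to 4.76 in the other cerebellum arrays.

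The difference from the forebrain depended on age, by the test of the change in limma, in the genes of largest change. P15 minus P1 was -7.92 for Rgs4 and 10.13 for Gabra6. P15 minus P30 was -2.69 for Ctxn3 and 5.34 for Insm1, and P15 minus P84 was -3.68 for Ctxn3 and 5.52 for Insm1.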

How the results depend on the processing

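With both displaced arrays kept, cerebellum against forebrain fell to 1261 genes higher and 1235 lower, against cortex to 1417 and 1474, and against hippocampus to 0 and 0. Restricted to probe sets with a mean of at least 5, these were 1517 and 1921, 1478 and 1834, and 1238 and 1648, since fewer genes were tested; the same filter gave 1116 genes lower in P15 minus P1, 138 lower in P15 minus P30, and 285 higher and 227 lower in P15 minus P84. Requiring a log2 difference of at least 1 gave 982 and 1289, 1093 and 1375, and 924 and 1256. A replicate block (2768 higher and 3293 lower against the forebrain), mouse as a random effect, quantile normalization, centring, a trended prior, all ages in 1 fit, 6 means, either genotype alone and adjusted p alone kept these counts within 1.5 times where run. Leaving out the 3 dim arrays, disomic replicate 3 of P1 cerebellum, P84 cortex and P84 hippocampus, did so for the age contrasts. Same-numbered arrays had correlations of deviations of 0.00343 to 0.65 over 15 pairs, and other-numbered pairs of -0.614 to 0.588. These correlations are tied to each other, as stated above.

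Leaving out each P15 array in turn gave 2246 to 2529 genes higher and 2724 to 3041 lower against the forebrain, 2205 to 2524 and 2537 to 2899 against cortex, 1837 to 2089 and 2340 to 2634 against hippocampus, 0 to 0 probe sets for genotype, and for the age contrasts 1328 to 1620 and 1748 to 2062 (P1), 261 to 337 and 183 to 253 (P30), and 339 to 445 and 301 to 403 (P84). Among 208 genes followed through the alternatives, no called gene reversed, and the other called genes were not followed one by one. With the displaced arrays kept, genes such as Gabra5, Cbln1 and Neurod6 lost their call. In the other fits, among genes named in the text, Ipcef1, Cabp7, Sema3a, Zbtb20 and Tph2 lost theirs in at least 1, while Fgfr1 and Etnppl gained one with the replicate block. The median over all probe sets was smaller for Egr3 (-4.15), Grin2b (-2.27), Nr4a3 (-0.19) and Il16 (2.34); it was not run for counts.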
